A study of Mus musculus with 8 samples.

Results

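The 10 genes described here encode the 5 subunits of the transcription factor NF-κB (Rela, Rel, Relb, Nfkb1 and Nfkb2) and 5 regulators grouped as its feedback inhibitors (Nfkbia, Nfkbie, Nfkbiz, Bcl3 and Tnfaip3). In this group, Nfkbiz is also needed for some targets of NF-κB, and Bcl3 can repress or activate. All 10 genes were taken by symbol from a table of 38392 genes, and 10 of 10 were found. Expression was measured by RNA-seq in eosinophils of C57/BL6 wildtype female mice, with 4 libraries from bone marrow and 4 from small intestine. Bone marrow eosinophils were sorted as CD11b+Ly6G-Ly6C-SiglecF+SSChi cells and intestinal eosinophils as CD11b+MHC-II-SiglecF+SSChi cells, with no treatment and no gene altered in either group. The comparison asked how eosinophils that have settled in the intestine differ from those at their site of production.

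In resting cells NF-κB dimers are held in the cytoplasm by IκB proteins. Signals from cytokine, Toll-like and antigen receptors activate the IκB kinase complex, IκB is degraded, and the freed dimers enter the nucleus. Genes for several subunits and inhibitors are themselves targets of NF-κB, which gives the pathway a negative feedback, and in granulocytes it is known for controlling survival and the production of cytokines. Rela, Rel and Relb carry a transactivation domain, whereas Nfkb1 and Nfkb2 encode precursors that are processed to DNA-binding subunits without one.

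Tissue and handling changed together. Intestinal cells were freed with EDTA and collagenase at 37°C and enriched on beads for CD11b, whereas bone marrow was flushed and sorted without either step, so tissue and handling cannot be told apart. Each tissue came from 4 mice, but the library names could not be tied to single samples, and p-values measure the spread between these libraries. Libraries held 11508002 to 21289164 reads in genes and are called by tissue and number (BM_1, SI_6). Markers went only in part with the labelled cell type. Normalised counts are reads divided by the size factor of the library. Siglecf, the eosinophil surface receptor of the gate, had 579.9 ± 66.0 normalised counts in bone marrow, compared with 3076 ± 516 in small intestine (mean ± SD, n = 4 each), and Ccr3, the eotaxin receptor, had 70.9 ± 25.7 and 16351 ± 2623. Epx, eosinophil peroxidase, had 349.9 ± 40.2 and 20.6 ± 9.06. The neutrophil precursor genes Mpo (149860.0 ± 19352 against 164 ± 26.1) and Elane (79791 ± 14221 against 80.5 ± 8.58) were high in bone marrow, and the neutrophil list of 12 genes took 3.83% to 4.56% of bone marrow reads and 0.00512% to 0.00706% of intestinal reads, whereas 10 eosinophil markers took 0.0348% to 0.0434% and 0.252% to 0.309%. The eosinophil list did not run alike. In limma at an adjusted p under 0.05, 6 of its genes were higher in small intestine and 4, Epx among them, lower. Of the neutrophil list 1 gene was higher and 11 were lower. Over all genes the shares were 22.0% higher and 12.9% lower. The part of neutrophil precursors in the members' bone marrow levels was not tested. In bulk samples, fewer cells of a type and less RNA per cell cannot be told apart.

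Promoter sequences are shown because several NF-κB genes are known targets of their own products. RefSeq windows from 250 bases before to 50 bases after the transcription start (GRCm38.p6) were at hand for 7 of the 10 genes, and 6 of these held the kappaB consensus on either strand. By comparison, it was present in 8.46% of the 32851 windows of all genes and for 9.55% of 27025 genes. Capitals mark the letters of a match, overlapping matches are joined, and only bases outside annotated exons are given for the longer stretches.
Rel, chr11:23770971-23771219, minus strand: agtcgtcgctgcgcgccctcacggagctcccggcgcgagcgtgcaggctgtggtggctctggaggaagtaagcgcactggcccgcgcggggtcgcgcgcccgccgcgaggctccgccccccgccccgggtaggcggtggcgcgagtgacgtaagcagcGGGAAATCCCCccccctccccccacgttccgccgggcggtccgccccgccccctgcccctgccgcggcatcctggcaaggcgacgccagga
Nfkbia, chr12:55492648-55492897, minus strand: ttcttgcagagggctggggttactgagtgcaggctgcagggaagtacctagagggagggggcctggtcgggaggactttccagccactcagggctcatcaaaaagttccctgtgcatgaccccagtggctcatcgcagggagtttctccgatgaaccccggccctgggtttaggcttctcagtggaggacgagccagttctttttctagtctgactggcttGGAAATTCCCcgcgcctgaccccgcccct
Nfkbie, chr17:45555450-45555699, plus strand: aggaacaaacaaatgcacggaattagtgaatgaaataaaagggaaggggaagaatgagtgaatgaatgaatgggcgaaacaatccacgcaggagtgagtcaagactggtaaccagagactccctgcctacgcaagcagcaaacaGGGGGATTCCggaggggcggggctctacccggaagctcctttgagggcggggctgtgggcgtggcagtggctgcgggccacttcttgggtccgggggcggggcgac
Tnfaip3, chr10:19015411-19015547, minus strand: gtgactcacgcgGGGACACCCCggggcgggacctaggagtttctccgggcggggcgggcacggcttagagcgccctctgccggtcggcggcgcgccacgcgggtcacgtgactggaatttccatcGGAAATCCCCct
Rela, chr19:5637291-5637482, plus strand: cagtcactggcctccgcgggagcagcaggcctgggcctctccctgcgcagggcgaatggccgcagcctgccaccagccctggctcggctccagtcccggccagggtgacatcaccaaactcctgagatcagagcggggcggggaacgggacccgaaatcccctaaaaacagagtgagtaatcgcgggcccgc
Rel held a match whose first base lay at -92 from the start, and a second, overlapping one at -91. Nfkbia held 1 at -29 and Nfkbie 1 at -106, and Tnfaip3 held matches at -125 and -12. The Rela window, shown for contrast, held none. A second annotated window of Tnfaip3 held none either. Nfkb2 had matches at -39, -38 and -11 in its first window and at -236 and 11 in its second, and Bcl3 had 1 at 3, just after the start. Except for the one at -236 these lay in annotated exons, so only 30 bases around them are given, with the overlapping pair shown once.
Nfkb2, first window, chr19:46304688-46304717, plus strand: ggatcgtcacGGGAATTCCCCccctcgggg
Nfkb2, first window, chr19:46304716-46304745, plus strand: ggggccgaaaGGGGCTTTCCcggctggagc
Nfkb2, second window, chr19:46305695-46305724, plus strand: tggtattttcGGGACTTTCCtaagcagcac
Bcl3, chr7:19822734-19822763, minus strand: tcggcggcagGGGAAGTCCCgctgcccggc
A match is a description of the letters and not a binding site. Promoters of Nfkb1, Relb and Nfkbiz were not analysed here.

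Transcripts of all 10 genes were higher in small intestine than in bone marrow in limma at an adjusted p under 0.05 (called higher), and in all 10 every intestinal library lay above every bone marrow library, although Rela turned to -0.23 when each library was centred on its median. Of all 38392 genes, 22.0% were called higher and 12.9% lower. Every intestinal library lay above every bone marrow library for 20.3% of genes. Among the 16215 genes averaging at least 10 reads, which include all 10 members, 34.6% were called higher and 36.0% lay above without overlap. A difference is the intestinal mean minus the bone marrow mean on the deposited log2 scale. The median difference was 4.21 over the 10 members (range 0.67 to 7.49), 0.37 over all genes and 0.12 over genes averaging at least 10 reads. Relative to the median of all genes, the members were higher by 0.30 (Rela) to 7.12 (Tnfaip3). Levels below are normalised counts, and levels of different genes are compared only per kb of exon. The length used joins all annotated exons of a gene and can exceed that of a transcript. Orders, shares and ratios between genes per kb rest on this length.

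**Figure D1:**
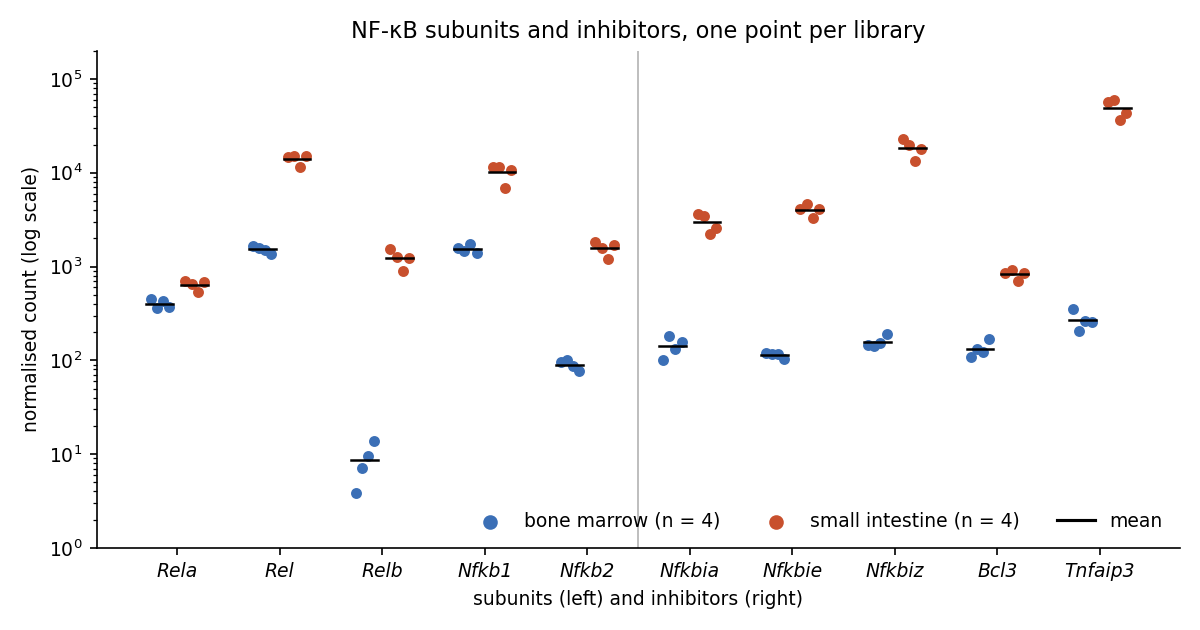
Normalised counts (log axis) of the 5 NF-κB subunit genes and the 5 inhibitor genes, 1 point per library, with 4 libraries per tissue and a line at each mean. Small intestine lies above bone marrow for each gene, closest for Rela (402 against 643), whose direction turned under median-centring, and furthest apart for Tnfaip3 (269.6 against 49136).

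Rela (ENSMUSG00000024927; GRCm38 chromosome 19, 5637483 to 5648130, plus strand) encodes the main transactivating subunit of the classical pathway. It had 451, 359, 428 and 371 normalised counts in BM_1, BM_3, BM_4 and BM_5, and 538, 682, 706 and 646 in SI_6, SI_7, SI_10 and SI_11. The lowest intestinal library, SI_6, was close above the highest bone marrow library, BM_1. The difference was 0.67 ± 0.19 (SE; 95% interval 0.24 to 1.10; limma, Benjamini-Hochberg adjusted p = 0.0230). Its interval covered the median of all genes, 0.37, and lay above that of genes averaging at least 10 reads, 0.12. With each library centred on its median the difference was -0.23 (limma adjusted p = 0.718), so the direction for Rela depended on the scaling. That median is over all 38392 genes, of which 22177 average under 10 reads. After quantile normalisation the difference was 0.73 (limma adjusted p = 0.00824).

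Rel (ENSMUSG00000020275; chromosome 11, 23736847 to 23770970, minus strand) encodes c-Rel, a subunit known for its inducible expression in blood cells. Its normalised counts were 1671, 1574, 1491 and 1367 in bone marrow (library order as above) and 11598, 15098, 14873 and 15163 in small intestine. Bone marrow libraries were close together, and among intestinal libraries SI_6 stood below the other 3. Rel rose 9.30-fold in mean normalised count, with a difference of 3.21 ± 0.19 (2.78 to 3.63; limma adjusted p = 6.04e-06). Per kb of all annotated exons it was the most abundant of the 10 transcripts in bone marrow, at 204 ± 17.3. Its place above Nfkb1 rests on the exon lengths, 7.466 kb for Rel and 12.061 kb for Nfkb1. Before division by length, the mean bone marrow counts were 1526 for Rel and 1542 for Nfkb1.

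Relb (ENSMUSG00000002983; chromosome 7, 19606217 to 19629438, minus strand) encodes the transactivating subunit of the alternative pathway, which pairs with the product of Nfkb2. In bone marrow it was near the limit of detection, with 5, 11, 10 and 15 reads and 3.83, 7.17, 9.57 and 13.9 normalised counts. The intestinal libraries had 896, 1220.4, 1522 and 1266 normalised counts. The ratio of the means was 142 and the difference 6.72 ± 0.31 (6.01 to 7.43; limma adjusted p = 2.10e-06), the largest among the subunits.

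Nfkb1 (ENSMUSG00000028163; chromosome 3, 135584655 to 135691547, minus strand) had 1565, 1465, 1758 and 1382 normalised counts in bone marrow, against 6893, 10824, 11616 and 11646 in small intestine. SI_6 was again the lowest intestinal library and lay apart from the other 3. Nfkb1 rose 6.64-fold, by 2.70 ± 0.23 (2.18 to 3.23; limma adjusted p = 4.39e-05). A predicted gene, Gm43430, lies within Nfkb1 on the same strand with up to 4014 reads and shares no exon base with it.

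Nfkb2 (ENSMUSG00000025225; chromosome 19, 46304320 to 46312385, plus strand), whose precursor retains Relb dimers in the cytoplasm, had 95, 101, 86.1 and 77.2 normalised counts in bone marrow. In small intestine it had 1207, 1697, 1817 and 1585. It rose 17.5-fold, by 4.07 ± 0.20 (3.60 to 4.54; limma adjusted p = 2.97e-06). Genes on the other strand cover 11.6% (AC114539.1) and 6.52% (Psd) of its exon bases, and reads cannot be assigned to a strand here, so its level may hold some of theirs. Psd had at most 624 reads in any library, and AC114539.1 was not analysed here.

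The make-up of the subunit transcripts differed between the tissues. The share of each gene in the summed normalised counts per kb of the 5 subunits was taken within each library and therefore does not depend on the scaling between libraries. Rela took 27.0% ± 1.53 of bone marrow subunit transcripts and 5.82% ± 0.35 of intestinal ones (mean ± SD, n = 4 each). Rel took 42.2% ± 2.14 and 52.7% ± 2.24. The partners of the alternative pathway rose from a small base, Relb from 0.471% ± 0.263 to 8.68% ± 0.789 and Nfkb2 from 4.04% ± 0.423 to 9.50% ± 0.450. For these 4 genes the ranges of the tissues did not overlap. Nfkb1 took 24.8% to 28.8% in bone marrow, compared with 20.5% to 24.9% in small intestine, ranges that overlapped narrowly. The ratio of Relb to Nfkb2 per kb was 0.119 ± 0.072 in bone marrow, against 0.914 ± 0.063 in small intestine, and that of Rel to Rela was 1.57 ± 0.161 and 9.08 ± 0.426.

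**Figure D2:**
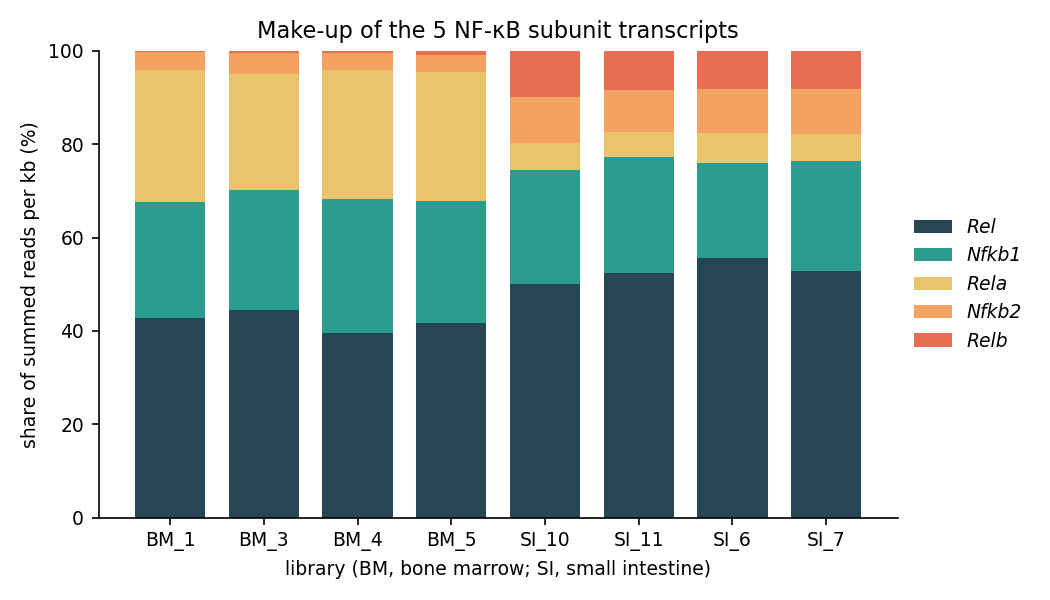
Share (%) of each subunit gene in the summed normalised counts per kb of the 5 NF-κB subunits, stacked to 100 for each of the 8 libraries. In bone marrow Rela holds about as much as Nfkb1 (means 27.0% and 26.4%), and in small intestine it is the smallest layer (5.82%), with Relb at 8.68%.

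The 5 inhibitors rose by 2.62 to 7.49 on the log2 scale. Nfkbia (ENSMUSG00000021025; chromosome 12, 55489410 to 55492647, minus strand) encodes IκBα, the classical inhibitor that is degraded on activation and made anew by NF-κB. Its normalised counts were 99.6, 183, 132 and 156 in bone marrow, compared with 2234, 2557, 3648 and 3459.9 in small intestine. The intestinal values fell into a lower pair, SI_6 and SI_7, and a higher pair, SI_10 and SI_11. Nfkbia rose 20.9-fold, by 4.35 ± 0.26 (3.75 to 4.95; limma adjusted p = 7.70e-06).

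Nfkbie (ENSMUSG00000023947; chromosome 17, 45555703 to 45563169, plus strand) encodes IκBε, a further cytoplasmic inhibitor known for a delayed feedback. It had 119, 116, 117 and 103 normalised counts in bone marrow, against 3288, 4099, 4109.9 and 4691 in small intestine. Its rise was 35.6-fold, or 5.10 ± 0.19 (4.67 to 5.53; limma adjusted p = 7.69e-07). The ratio of Nfkbie to Nfkbia per kb overlapped between the tissues, with 0.336 to 0.630 in bone marrow, compared with 0.596 to 0.848 in small intestine.

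Nfkbiz (ENSMUSG00000035356; chromosome 16, 55811375 to 55838899, minus strand) encodes IκBζ, an inducible nuclear IκB protein that binds NF-κB on chromatin and is needed for a subset of its later targets. The bone marrow libraries had 146, 142, 151 and 189.7 normalised counts. The intestinal libraries had 13257, 17927, 22819 and 19836. Nfkbiz rose 117-fold, by 6.82 ± 0.23 (6.30 to 7.34; limma adjusted p = 4.68e-07), and per kb it was the second most abundant member in small intestine.

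Bcl3 (ENSMUSG00000053175; chromosome 7, 19808462 to 19822770, minus strand) encodes another nuclear IκB protein, which binds dimers of the processed Nfkb1 and Nfkb2 products and can repress or activate. It had 109.6, 131, 123 and 169 normalised counts in bone marrow, against 695, 859.8, 862 and 919 in small intestine. With a 6.26-fold rise and a difference of 2.62 ± 0.21 (2.15 to 3.09; limma adjusted p = 2.91e-05) it changed least among the inhibitors. The ratio of Nfkbiz to Bcl3 per kb was 0.588 ± 0.056 in bone marrow, compared with 10.8 ± 1.56 in small intestine. Gm16175, on the other strand, covers 6.50% of its exon bases with at most 7 reads in any library.

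Tnfaip3 (ENSMUSG00000019850; chromosome 10, 19000910 to 19015657, minus strand) encodes a ubiquitin-editing enzyme that shuts off signalling upstream of the IκB kinase. It had 356, 205, 260.3 and 257 normalised counts in bone marrow, against 36942, 43826, 56348 and 59427 in small intestine. The 182-fold rise, a difference of 7.49 ± 0.25 (6.92 to 8.06; limma adjusted p = 4.77e-07), was the largest of the 10 and ranked 103 of all 38392 genes. Its ratio to Nfkbia per kb was 0.463 ± 0.236 in bone marrow, compared with 3.69 ± 0.180 in small intestine. Among all genes ordered by normalised count per kb, Tnfaip3 stood at place 8830 in bone marrow and at place 52 in small intestine.

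**Figure D3:**
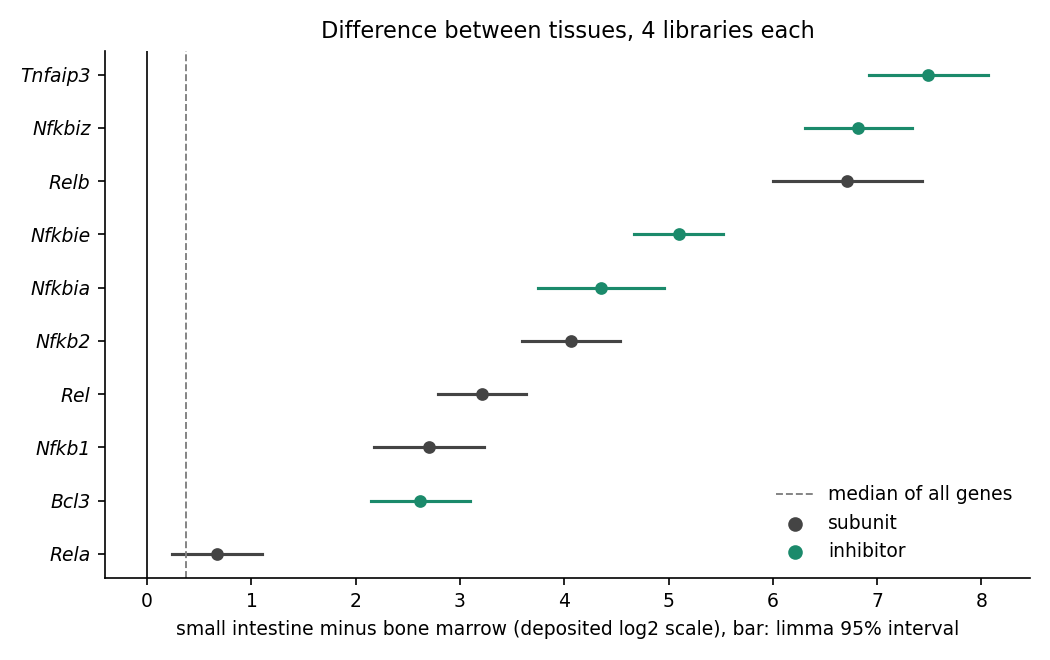
Difference between small intestine and bone marrow for each of the 10 genes on the log2 scale of the deposited table, with bars for limma's 95% interval and the median of all genes (0.37) as a dashed line. Tnfaip3, Nfkbiz and Relb lie between 6.72 and 7.49, and only the interval of Rela, 0.24 to 1.10, reaches the dashed line; Rela turned to -0.23 under median-centring.

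The order of the levels per kb differed between the tissues. Bone marrow ran from Rel (204) over Rela (131), Nfkb1 (128), Nfkbia (88.6), Bcl3 (53.9), Nfkbie (37.3), Tnfaip3 (37.3), Nfkbiz (31.4) and Nfkb2 (19.6) to Relb (2.22). Rela and Nfkb1, Nfkbia and Bcl3, Nfkbie and Tnfaip3, and Tnfaip3 and Nfkbiz were neighbours whose ranges over libraries overlapped. Small intestine ran from Tnfaip3 (6799.9) over Nfkbiz (3679), Rel (1899.7), Nfkbia (1848), Nfkbie (1329), Nfkb1 (849), Nfkb2 (344), Bcl3 (337) and Relb (316) to Rela (209). Here the ranges of Rel and Nfkbia, Nfkbia and Nfkbie, Nfkb2 and Bcl3, and Bcl3 and Relb overlapped. Rela thus stood in second place in bone marrow and last in small intestine. Summed per kb, the 5 inhibitors had 248 ± 22.4 in bone marrow, against 13992 ± 2813 in small intestine, and the 5 subunits 485 ± 36.9 and 3618 ± 553. The ratio of inhibitor to subunit transcripts was 0.428 to 0.621 in the bone marrow libraries and 3.38 to 4.19 in the intestinal libraries. This ratio counts Nfkbiz and Bcl3 as inhibitors and is not a measure of restraint. Nfkbia was below Rela per kb in every bone marrow library (ratio 0.696 ± 0.240) and above it in every intestinal one (8.79 ± 1.49).

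The intestinal libraries did not share 1 level. SI_6 was the lowest intestinal library for 10 of 10 members, with a median deviation from the intestinal mean of -0.38 (range -0.54 to -0.25). Over genes averaging at least 10 reads its median deviation was 0.0048. Among those genes SI_6 was the lowest intestinal library for 32.6% and the highest for 33.9%. The count of members depended on the scaling, since SI_6 was lowest for 6 members after median-centring and for 9 after quantile normalisation. The 10 genes took 0.499% of all reads in SI_6, 0.619% in SI_7, 0.777% in SI_10 and 0.689% in SI_11, against 0.0309% to 0.0355% in bone marrow. The reads of marker lists also differed between these libraries. The epithelial list of 8 genes took 0.112% of reads in SI_6, 0.0456% in SI_7, 0.0174% in SI_10 and 0.0187% in SI_11, and the 14 macrophage and dendritic genes took 0.167%, 0.152%, 0.111% and 0.129%. The genes of the latter list did not run alike. Itgax, its most abundant gene, had 12190, 14554, 13527 and 16613 normalised counts in these libraries, and C1qb had 318, 165, 93.0 and 164. The 10 eosinophil markers took 0.252% of reads in SI_6 and 0.306% to 0.309% in the others. The part of these cells in the members' levels was not tested. Without BM_5 and SI_6, a choice made after the data were seen, all 10 members were still called higher.

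**Figure D4:**
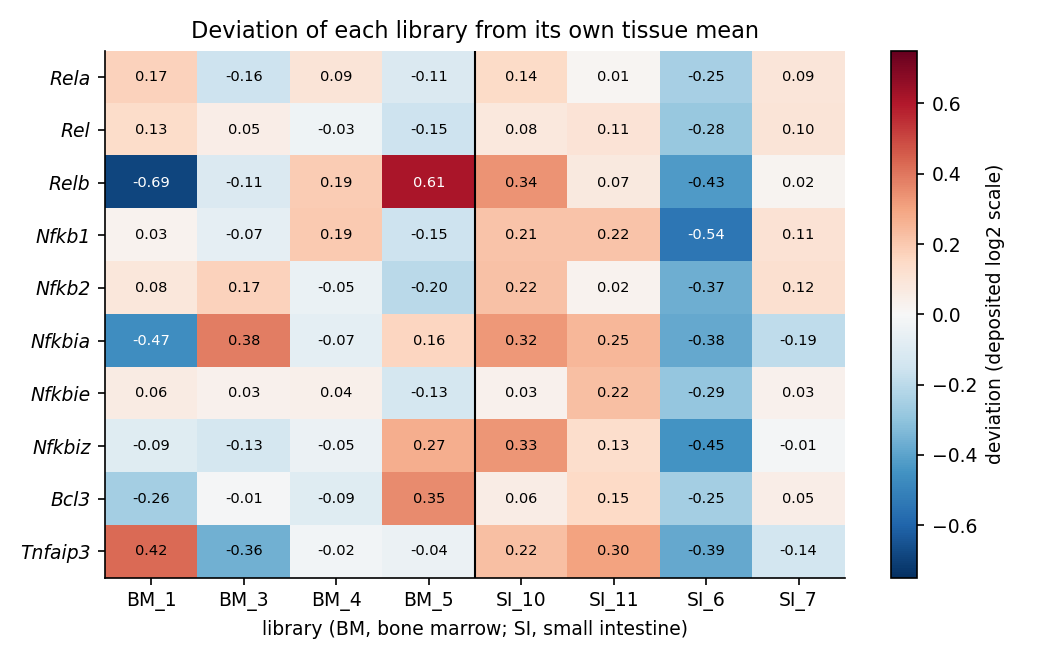
Deviation of each library from the mean of its own tissue on the deposited log2 scale, for the 10 genes (rows) and 8 libraries (columns), with red above and blue below the mean. The SI_6 column is below 0 for all 10 genes, from -0.54 (Nfkb1) to -0.25 (Bcl3 and Rela), and Relb in bone marrow, with 5 to 15 reads, spreads widest.

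Lists of other cells also differed between the tissues. For comparison, 22.0% of all genes were called higher and 12.9% lower. Among genes averaging at least 10 reads, 34.6% were called higher. Against bone marrow, 8 of 8 epithelial genes were called higher (for example Epcam, 2.14 ± 2.96 and 1149 ± 1119 normalised counts, and Vil1, 14.4 ± 8.46 and 1101 ± 960.2), as were 12 of 14 macrophage and dendritic genes (C1qa, 14 ± 6.28 and 76.8 ± 39.2, and C1qb, 52.7 ± 12.7 and 185 ± 94.7, the latter not called under median-centring, with 0.73 and adjusted p = 0.224). The epithelial list took at most 0.112% of intestinal reads and the macrophage and dendritic list at most 0.167%, which includes Itgax and Csf1r, not restricted to those cells. In the remaining lists, 5 of 6 fibroblast genes were called higher, 4 of 6 endothelial genes higher and 1 lower, 4 of 8 T cell genes higher, 1 of 8 B and plasma cell genes higher and 2 lower, and 1 of 7 mast cell and basophil genes higher and 4 lower. None of these took more than 0.0569% of intestinal reads. A list of 16 genes known to respond to tissue dissociation, Fos, Jun and heat shock genes among them, was called higher for 16 of 16, with a median difference of 5.82. It took 0.00969% to 0.0120% of bone marrow reads and 0.619% to 0.792% of intestinal reads. Its 3 largest rises were those of Fosb (8.89 ± 0.26), Atf3 (8.57 ± 0.22) and the phosphatase gene Dusp1 (7.93 ± 0.27). The part of the digestion in the rise of the NF-κB genes was not tested.

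The kinases and adaptors around the 10 genes changed less uniformly. Of 44 pathway genes, 25 were called higher, 3 lower and 16 neither, beside 22.0% higher and 12.9% lower over all genes. Among genes averaging at least 10 reads, as 43 of the 44 do, 34.6% were called higher. The median difference of the pathway genes was 0.75, beside 0.37 for all genes and 0.12 for genes averaging at least 10 reads. These counts depended on the scaling, since median-centring gave 11 higher and 8 lower. They also depended on the libraries used, since the number lower was 6 without BM_5, 7 without SI_10 and 5 without SI_6 or without SI_7. In the IκB kinase complex, the catalytic subunit gene Ikbkb rose from 1668 ± 102 to 6548 ± 779 normalised counts (1.96 ± 0.18; limma adjusted p = 6.76e-05; 1.06 and adjusted p = 0.0586 under median-centring). Chuk, the other catalytic subunit, went from 749 ± 50 to 1312 ± 174 (0.80 ± 0.19; limma adjusted p = 0.00964), but was at -0.10 under median-centring. Ikbkg, the regulatory subunit, had 561 ± 87.6 and 528 ± 21.2 normalised counts and was not called (-0.07 ± 0.19; interval -0.50 to 0.36; limma adjusted p = 0.785). Map3k14, the kinase that starts the alternative pathway, rose from 96.0 ± 14.6 to 412 ± 34.4 (2.07 ± 0.19; limma adjusted p = 7.36e-05).

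Further inhibitors were among the genes that rose. Nfkbid, another nuclear IκB gene, rose from 155 ± 8.18 to 1812 ± 199 normalised counts (3.51 ± 0.17), and the deubiquitinase gene Cyld from 1357 ± 52.7 to 8457 ± 1114 (2.63 ± 0.18). Nfkbib, which encodes IκBβ, rose from 219 ± 28.2 to 805 ± 148 (1.85 ± 0.21; limma adjusted p = 0.000228; 0.95 and adjusted p = 0.0982 under median-centring). Tnip1, whose product acts with the Tnfaip3 enzyme, went from 409 ± 70.4 to 716 ± 134 (0.80 ± 0.22; limma adjusted p = 0.0238), with -0.10 under median-centring and an adjusted p of 0.0569 without BM_3. Birc3, a ubiquitin ligase gene, rose from 512 ± 42.7 to 22518 ± 3105 (5.44 ± 0.19) and Traf1, an adaptor of the TNF receptor family, from 8.63 ± 5.71 to 356 ± 101 (5.01 ± 0.43). The 3 genes called lower were Ikbke, an IκB kinase-related kinase (1268 ± 85.3 to 135 ± 28.8), Card9, an adaptor of C-type lectin receptors (755 ± 24.6 to 319 ± 23.3), and Nkrf, a repressor of NF-κB (235 ± 26 to 107 ± 18.9). They fell by 3.21, 1.24 and 1.12 on the log2 scale, and each was called lower under every alternative tried.

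**Figure D5:**
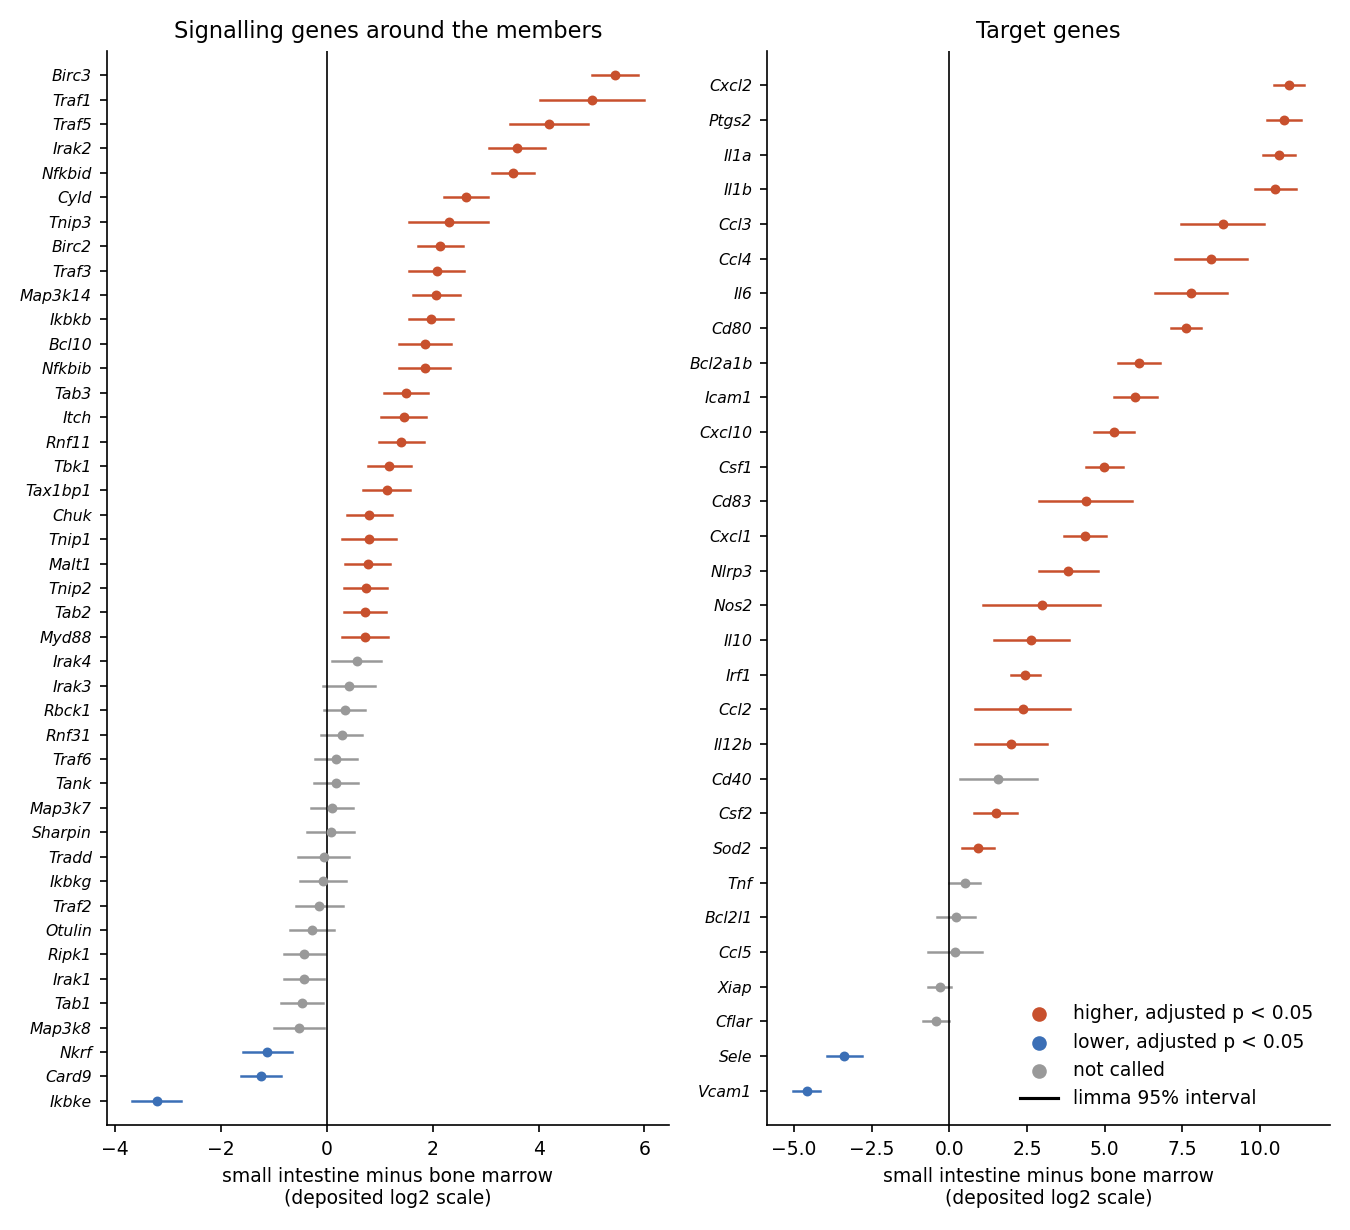
Difference between small intestine and bone marrow on the deposited log2 scale for 43 of the 44 pathway genes (left) and 30 target genes (right), with limma's 95% intervals; red marks genes called higher, blue genes called lower and grey those not called. The pathway genes plotted spread from -3.21 (Ikbke) to 5.44 (Birc3) and targets from -4.59 (Vcam1) to 10.94 (Cxcl2), while under median-centring the calls were 11 higher and 8 lower among all 44 pathway genes.

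Known targets of NF-κB moved in both directions. Of 30 genes, 22 were called higher, 2 lower and 6 neither, beside 22.0% higher and 12.9% lower over all genes. Among genes averaging at least 10 reads, as 25 of the 30 do, 34.6% were called higher. The median difference of the targets was 3.40, beside 0.37 for all genes and 0.12 for genes averaging at least 10 reads. The number lower was 4 without BM_5 and under median-centring. The neutrophil chemokine gene Cxcl2 rose from 31.3 ± 6.41 to 68026 ± 8261 normalised counts (10.94 ± 0.21), the cyclooxygenase gene Ptgs2 from 22.2 ± 3.75 to 45925 ± 11724 (10.77 ± 0.24), and the cytokine gene Il1a from 16.9 ± 3.90 to 31933 ± 6099.8 (10.60 ± 0.23). Vcam1 and Sele, adhesion molecules best known from endothelium, were lower in small intestine. Vcam1 went from 5777 ± 755 to 236 ± 32.4 and Sele from 653 ± 42.6 to 61.6 ± 19.6, and they fell by 4.59 and 3.38 on the log2 scale. Tnf, chosen after its values were seen, had 146, 153, 119 and 128 normalised counts in bone marrow, compared with 141, 186, 228 and 231 in small intestine. SI_6 lay within the bone marrow range, and the difference of 0.49 ± 0.22 was not called (interval -0.01 to 1.0; limma adjusted p = 0.127). It was called higher when only genes averaging at least 10 reads were tested (adjusted p = 0.0394), without SI_6 (0.64; adjusted p = 0.0207) and without BM_5 and SI_6 (0.61; adjusted p = 0.0281). Under median-centring it was -0.41 (adjusted p = 0.507).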

How the data were processed

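RNA of sorted eosinophils was amplified to cDNA (NuGEN Ovation) and sequenced from a single end. The authors aligned reads to GRCm38 (Ensembl release 86) with nf-core/rnaseq and deposited values of the DESeq2 variance stabilisation (R 4.0.3 in the submitters' processing notes), which are on a log2 scale. For genes with many reads 1 unit is nearly a doubling, and for genes with few reads it is less. Strand and multi-mapping settings were not given in the sources used here. The columns of the table named tissue and a library number that matched no single sample, so libraries carry the column names. From the common lowest value (0.92971568) the transformation was inverted, and after multiplication by a size factor per library (0.721 to 1.53) 100% of values were whole reads within 0.05. Totals were 11508002 to 21289164 reads, and values are least precise for 22177 genes that average under 10 reads.

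Tissues were compared with limma (3.58.1; R 4.3.3), fitted to the values of 8 libraries as deposited, with tissue as the only term, a constant prior and no filter. Tests were 2-sided with Benjamini-Hochberg adjustment over 38392 genes and a threshold of 0.05. The study fitted a count model. Here limma on the log2 values was the main test, and voom on the recovered reads an alternative. SE and 95% intervals are limma's. Exon lengths (all annotated exons of a gene joined), coordinates and overlaps came from GENCODE M21 (38392 identifiers found, 38000 with the same symbol). Promoter windows and their sequences came from RefSeq. Further alternatives were a mean-variance trend, a minimum mean of 10 reads, median-centring, quantile normalisation, log2 of normalised count plus 1 or 5, and leaving out libraries. Figures and tables used Python 3.11.15, numpy 2.4.6, pandas 2.3.3 and matplotlib 3.10.9.

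The members, the gene lists and the rule for named genes were chosen with earlier results of these data known. The rule named all 10 members, 10 pathway genes (Chuk, Ikbkb, Ikbkg, Map3k14, Nfkbib, Nfkbid, Birc3, Tnip1, Cyld and Traf1), the 3 largest called rises and 3 largest called falls of the pathway, target and dissociation lists, the first 2 genes of each marker list (given here for the eosinophil, neutrophil, macrophage and dendritic, and epithelial lists, and, besides Pecam1, as counts for the others), and Siglecf, Epx and Mpo. 1 pathway gene that the rule named is not reported here, and it is part of the counts of its list only.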

Additional observations from a re-analysis of the deposited data

Results flagged for a closer look

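Within a tissue, 8 of 138 groups of 4 values had 1 library far from the other 3, that is a gap to the nearest value, as a share of the group's range, above Dixon's 95% critical value for 4 samples. Chance sets about 1 in 20 groups apart, or 6.9 of 138. In small intestine SI_6 stood apart for Rel (0.928 of the range) and for Nfkb1 (0.861), in both as the lowest library, for C1qa (0.832) as the highest, and for the share of reads in eosinophil markers (0.934) as the lowest. SI_10 stood apart as the highest for the share of Relb in subunit reads per kb (0.884). In bone marrow BM_5 stood apart as the lowest for Nfkbie (0.838) and Map3k14 (0.863), and as the highest for the share of reads in eosinophil markers (0.885).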

How the results depend on the processing

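Over 16 alternatives, 9 of the 10 members kept direction and call. The exception was Rela, which moved to -0.23 under median-centring (adjusted p = 0.718) and ranged from -0.23 to 0.75. The calls among all genes depended on the scaling and on the genes tested, with 63.2% of calls higher in the reported fit, 53.8% among genes averaging at least 10 reads, 45.8% after quantile normalisation and 29.5% after median-centring, which called 4285 genes higher and 10216 lower. The median difference of the genes tested was 0.37, 0.12, -0.03 and -0.53 in these fits. The 0.12 is over the 16215 genes averaging at least 10 reads, and the others are over all genes. Median-centring called 11 pathway genes higher. Pathway genes called lower were 3 in the reported fit, 5 with voom, 6 with the trend, 7 with the minimum of 10 reads, 8 with median-centring, 6 with quantile normalisation, 7 with a pseudocount of 5, 6 without BM_5 and SI_6, and 3 to 7 with 1 library left out (6 without BM_5, 7 without SI_10, 5 without SI_6 or SI_7). Target genes called lower were 2, and 4 with voom, the trend, the minimum of 10 reads, median-centring, quantile normalisation or a pseudocount of 5, and 2 to 4 with 1 library left out (4 without BM_5). Of named genes, Chuk and Tnip1 (both -0.10) and Tnf (-0.41) changed sign under median-centring. No paired analysis was possible because the tissues share no replicate number and the columns give none. Depth limits chiefly Relb in bone marrow, with 5 to 15 reads per library.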

Other observations

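The kappaB consensus was also counted in the promoter windows of tested genes averaging at least 10 reads, as a description without a test. Of 3708 such genes called higher in small intestine 14.8% held a match, of 3460 called lower 10.5%, and of 4023 not called 10.8%. Counted without a minimum of reads, 10 of 35 pathway genes (28.6%) and 10 of 22 target genes (45.5%) held a match. The like share was 9.55% of the 27025 genes with a window. The target genes were listed as known targets of NF-κB.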
